A study of Rattus norvegicus with 6 samples.

Results

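Liver transcripts of 9 acute phase plasma proteins (A2m, Apcs, Crp, Hp, Hpx, Lbp, Orm1, Itih3 and Itih4) and of the secreted iron-trap protein gene Lcn2 were followed in rats given carbon tetrachloride (CCl4) or corn oil. These 10 genes, of 11939 genes tested, were taken as a list by symbol, through the RefSeq accession that the array gives each probe, and were selected on their difference between CCl4 and corn oil, which was already known. Those differences are therefore given as a description with no test. All 15 probes of the 10 genes were well above background on all 6 arrays, so no gene of the list was lost to the filter on dim probes.

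The animals were male rats of the outbred Sprague-Dawley stock, bought at 5 weeks of age. CCl4 was given to 3 rats at 100 mg/kg/day, and corn oil, the vehicle, to the other 3, with 1 array of liver RNA per rat. Liver enzymes turn CCl4 into reactive products that injure hepatocytes, and repeated doses are used to model liver fibrosis. The labels disagree on exposure, with 9 weeks of dosing in one field and a measurement at 28 days in another. No allele or second agent is recorded for either group.

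The acute phase response is the change in plasma proteins that follows injury or infection. Interleukin-6 acts through its receptor chains and STAT3, and interleukin-1 through NF-kB, on hepatocytes, which then raise the output of positive acute phase proteins and lower that of negative ones such as albumin. Glucocorticoids and C/EBP factors strengthen many of these gene responses. Alpha-2-macroglobulin (A2m) and alpha-1-acid glycoprotein (Orm1) are strong responders in the rat, whereas C-reactive protein is abundant in rat plasma even at rest.

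RefSeq promoter sequences of the rat build GRCr8 matched 7 of the 10 genes, namely Apcs, Crp, Hpx, Lcn2, Orm1, Itih3 and Itih4. The 250 bases before the start of 4 genes are shown because they include a gene with higher signal in every CCl4 rat (Orm1), one with lower signal in every CCl4 rat (Apcs), the gene that split the CCl4 rats (Lcn2) and the gene holding the STAT motif (Itih4). Capitals mark matches, on either strand, to the STAT motif TTCNNNGAA, the core CTGGGA of the interleukin-6 type II element and the C/EBP motif TTNNGNAA.
Orm1, chr5:81788259-81788508, plus strand: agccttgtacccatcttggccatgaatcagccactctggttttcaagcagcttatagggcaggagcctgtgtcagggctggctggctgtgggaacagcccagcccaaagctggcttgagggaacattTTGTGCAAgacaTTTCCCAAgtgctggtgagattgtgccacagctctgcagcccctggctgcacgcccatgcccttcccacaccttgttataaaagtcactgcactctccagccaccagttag
Lcn2, chr3:36081781-36082030, minus strand: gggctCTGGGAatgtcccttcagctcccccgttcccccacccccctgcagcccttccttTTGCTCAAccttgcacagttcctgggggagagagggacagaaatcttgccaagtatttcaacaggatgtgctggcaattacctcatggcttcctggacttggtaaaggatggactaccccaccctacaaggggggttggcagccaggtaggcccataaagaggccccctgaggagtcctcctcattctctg
Apcs, chr13:87906509-87906758, minus strand: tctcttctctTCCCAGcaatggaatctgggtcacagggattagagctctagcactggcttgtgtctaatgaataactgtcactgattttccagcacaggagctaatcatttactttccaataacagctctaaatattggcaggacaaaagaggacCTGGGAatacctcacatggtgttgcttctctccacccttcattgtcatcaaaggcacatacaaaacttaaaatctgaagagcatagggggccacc
Itih4, chr16:6086735-6086984, plus strand: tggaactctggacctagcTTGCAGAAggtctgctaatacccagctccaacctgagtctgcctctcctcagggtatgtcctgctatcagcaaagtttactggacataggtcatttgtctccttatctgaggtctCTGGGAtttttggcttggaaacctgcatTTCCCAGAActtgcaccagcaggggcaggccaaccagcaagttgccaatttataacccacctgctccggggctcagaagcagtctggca

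Itih4 was the only one of the 7 with a STAT match, at positions -89 to -81 from the start, and this match overlaps a CTGGGA match on the minus strand. STAT matches occurred in 7.67% of 33469 rat promoter windows of the same length. CTGGGA was found in Lcn2, Crp, Apcs and Itih4, against 25.7% of all windows. TTNNGNAA was found in Hpx, Lcn2, Orm1, Crp and Itih4, against 37.2% of all windows. GGGNNTTTCC, a narrow form of the NF-kB motif (1.30% of windows), had no match in the 7 windows, which says only that these letters are not there. Other forms of the NF-kB motif were not searched for. A match is a run of letters, and binding was not measured.

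Levels are given as log2 signal relative to each array's 75th percentile, so 0 is the signal at that percentile, and a level can be compared between rats for 1 probe but not between probes. Differences are CCl4 minus corn oil. Of the 10 genes 3 had a positive difference (Lbp, Orm1 and Lcn2) and 7 a negative one, with a median of -0.13, beside a median of -0.05 over all genes tested. The sign of this median depends on the scaling, since quantile normalization gave 0.053 for the 10 genes and -0.035 for all genes. Without corn oil rat 2 the median of the 10 genes was -0.23. The groups did not overlap for 4 of the 10 genes, where 27.4% of all genes tested did not overlap. CCl4 lay above corn oil for Lbp and Orm1 (11.5% of all genes) and below it for Apcs and Itih3 (15.9% of all genes). The same shares apply to list genes described below as higher or lower in every CCl4 rat. Over all genes tested, limma with Benjamini-Hochberg adjustment and a threshold of 0.05 called 0.637%, with 0.561% higher and 0.0754% lower in CCl4, and 19.7% had an unadjusted p under 0.05.

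**Figure D1:**
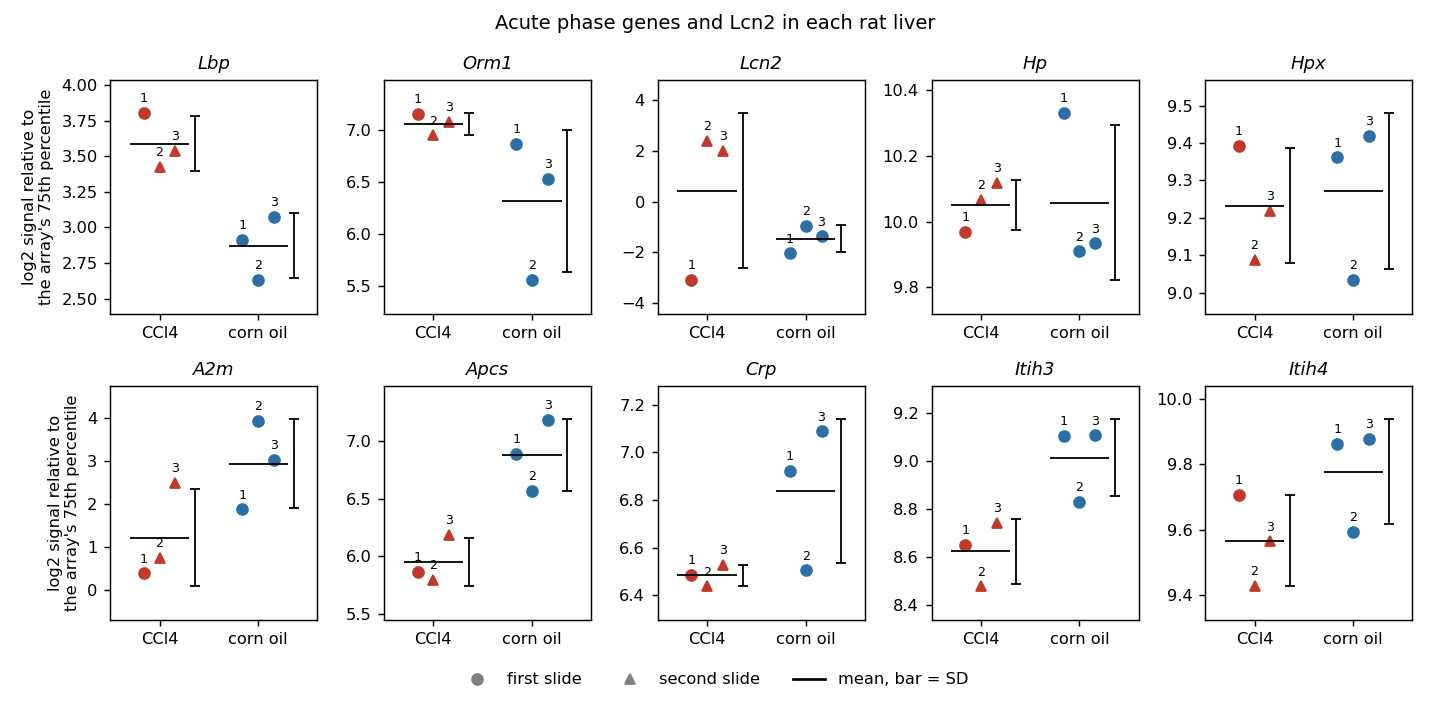
Log2 signal relative to the array's 75th percentile (y axis, a separate scale for each gene) in each CCl4 and corn oil rat, with the mean as a line and the SD as a bar (n = 3 per group); circles are arrays of the first slide and triangles of the second. Lbp and Orm1 lay higher in all 3 CCl4 rats, Apcs and Itih3 lay lower in all 3, and CCl4 rat 1 stood apart from CCl4 rats 2 and 3 for Lcn2.

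The 6 arrays had a 75th percentile of 582.6 to 675.6 signal units, and 61.9% to 67.3% of 61537 probes were well above background. All corn oil arrays and CCl4 rat 1 were on a first slide, and CCl4 rats 2 and 3 were on a second slide scanned on another day, so for these 2 rats slide and treatment cannot be told apart. Within-slide values rest on CCl4 rat 1. All 14 hepatocyte markers were measured, and their summed signal, in multiples of the array's 75th percentile, was 3533 to 3853 in CCl4 livers and 4344 to 4537 in corn oil livers, without overlap. The median log2 levels of these markers were 6.46, 6.47 and 6.63 in CCl4 rats and 7.12, 6.71 and 6.65 in corn oil rats. The part of these markers in the results on hepatocyte genes was not tested. In whole liver, fewer cells of a type and less RNA per cell cannot be told apart.

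Lbp encodes lipopolysaccharide-binding protein, a plasma protein from hepatocytes that hands bacterial lipopolysaccharide to CD14. Its level was 3.80, 3.43 and 3.54 in CCl4 rats 1, 2 and 3, against 2.91, 2.63 and 3.08 in corn oil rats 1, 2 and 3. Every CCl4 rat lay above every corn oil rat, with a gap of 0.35 between the nearest animals. The difference was 0.72 (1.65-fold), from means of 3.59 ± 0.19 in CCl4 and 2.87 ± 0.23 in corn oil (SD, n = 3 each). Within the first slide it was 0.93. Across the 19 alternative settings it ran between 0.60 and 0.93.

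Orm1 encodes alpha-1-acid glycoprotein, a plasma carrier of basic and neutral drugs. In CCl4 rats its level was tightly grouped at 7.15, 6.95 and 7.08, while corn oil rats had 6.87, 5.56 and 6.53. The groups did not overlap, but the gap between the nearest animals was 0.08, since corn oil rat 1 lay close to the CCl4 rats and corn oil rat 2 far below them. The difference was 0.74 (1.67-fold) and was 0.36 without corn oil rat 2. The SD was 0.10 in CCl4 and 0.68 in corn oil, and 95.1% of all genes tested had a smaller SD in corn oil.

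Lcn2 encodes lipocalin-2, also called neutrophil gelatinase-associated lipocalin, which binds iron-loaded bacterial siderophores and is made by stimulated hepatocytes as well as by neutrophils. Its level was -3.10 in CCl4 rat 1 but 2.40 and 1.99 in CCl4 rats 2 and 3, against -2.04, -0.96 and -1.38 in corn oil rats 1, 2 and 3. CCl4 rat 1 was the lowest of the 6 animals and CCl4 rats 2 and 3 were the highest, so the groups overlapped. On the linear scale CCl4 rats 1, 2 and 3 had 0.116, 5.28 and 3.98 times the 75th percentile, and corn oil rats 0.243, 0.515 and 0.385 times.

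The range of Lcn2 within the CCl4 group was 45.5-fold, and 99.97% of all genes tested had a smaller SD in that group than its 3.07. The mean difference was 1.89 with both slides, -1.65 within the first slide and 3.66 without CCl4 rat 1. It was 0.90 without CCl4 rat 2 and 1.11 without CCl4 rat 3. The split of the CCl4 rats followed the slide, so an animal difference and a slide difference cannot be told apart. A single probe reported this gene.

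Of 13 listed neutrophil markers 7 were measured, and their summed signal was 5.06, 3.44 and 2.67 in CCl4 rats 1, 2 and 3, against 4.13, 6.86 and 3.16 in corn oil rats. The markers differed in their order among the CCl4 rats, with CCl4 rat 1 lowest for 3 (Prtn3, Ngp and Fcnb), as for Lcn2, and highest for 4 (Camp, Csf3r, S100a8 and S100a9). Ngp was dim, at -5.70 in CCl4 rat 1, and was well above background on only 2 CCl4 and 2 corn oil arrays. Prtn3, a granule protease gene, was at -3.56, -2.68 and -2.84 in CCl4 rats, against -2.59, -2.90 and -2.96 in corn oil rats. Elane, Ltf, Mmp8 and Cxcr2, which encode granule proteins and a chemokine receptor of neutrophils, were not well above background on any array, and no probe was matched to Mpo or Cd177. The calprotectin genes S100a8 and S100a9 were at 0.31, -0.54 and -1.35 and at 1.29, 0.62 and -0.23 in CCl4 rats 1, 2 and 3, against -0.16, 0.78 and -0.46 and 0.72, 1.67 and 0.49 in corn oil rats. Bile duct markers, measured for 6 of 8 genes, summed to 2.33, 1.95 and 4.69 in CCl4 rats and 1.61, 1.71 and 1.64 in corn oil rats. Macrophage markers summed to 148, 153 and 174 in CCl4 rats and 112, 131 and 131 in corn oil rats, and both of these sums were without overlap between the groups. A sum is carried by the brightest markers, and the median log2 levels overlapped. For bile duct markers they were -2.33, -2.41 and -2.08 in CCl4 rats and -2.17, -2.45 and -2.15 in corn oil rats, and for macrophage markers 1.08, 1.13 and 1.61 in CCl4 rats and 0.40, 0.94 and 1.20 in corn oil rats. The part of these cells in the Lcn2 values was not tested.

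**Figure D2:**
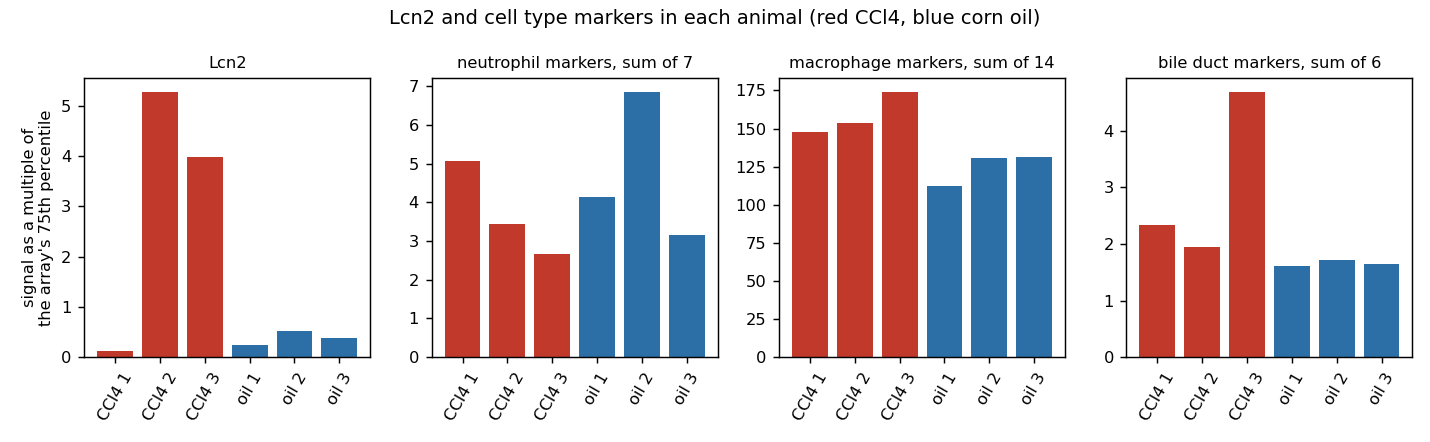
Linear signal as a multiple of the array's 75th percentile (y axis, starting at 0) for Lcn2 and for summed neutrophil, macrophage and bile duct markers, 1 bar per rat, with CCl4 in red and corn oil in blue. Lcn2 was high in CCl4 rats 2 and 3 only, whereas the neutrophil sum was highest in corn oil rat 2 at 6.86.

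Hp and Hpx encode haptoglobin and hemopexin, which bind free haemoglobin and free haem in plasma. Hp had levels of 9.97, 10.07 and 10.12 in CCl4 rats, against 10.33, 9.91 and 9.93 in corn oil rats. The Hp probe was saturated on the array of CCl4 rat 3, so the value there is a lower bound, and so is the mean difference of -0.0067. CCl4 rats 1 and 2 lay between the highest and lowest corn oil rats, so the groups overlapped. The second Hp probe, which was not saturated, gave 0.16. Levels of Hpx were 9.39, 9.09 and 9.22 in CCl4 rats, against 9.36, 9.03 and 9.42 in corn oil rats, again overlapping, with a difference of -0.039. The sign of Hp turned under 5 of the 19 alternative settings and that of Hpx under 7, with values of -0.09 to 0.13 for Hp and -0.16 to 0.17 for Hpx.

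A2m encodes alpha-2-macroglobulin, a broad protease inhibitor that traps proteases in plasma. Its level was 0.38, 0.75 and 2.50 in CCl4 rats, against 1.87, 3.92 and 3.02 in corn oil rats. CCl4 rats 1 and 2 lay below every corn oil rat, while CCl4 rat 3 lay between corn oil rats 1 and 3. The difference was -1.73 (3.31-fold lower in CCl4), with an SD of 1.13 in CCl4 and 1.03 in corn oil. These SDs exceeded those of 98.9% and 98.1% of all genes tested. The other A2m probes gave -1.73 and -1.81 with the same lowest and highest animal, CCl4 rat 1 and corn oil rat 2. The difference was -2.56 within the first slide and -1.23 without corn oil rat 2.

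Apcs and Crp encode the pentraxins serum amyloid P component and C-reactive protein, ring-shaped proteins that bind microbes and dying cells. Apcs had levels of 5.86, 5.80 and 6.19 in CCl4 rats, against 6.89, 6.57 and 7.19 in corn oil rats. All CCl4 rats lay below all corn oil rats, with a gap of 0.38, and the difference was -0.93 (1.91-fold lower in CCl4). It stayed between -1.09 and -0.78 across the 19 settings and was -1.02 within the first slide.

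Crp levels in CCl4 rats were 6.48, 6.44 and 6.53, and those in corn oil rats 6.92, 6.50 and 7.09. The CCl4 rats were nearly alike on this brighter probe (SD 0.045) and corn oil rat 2 lay among them, so the groups overlapped. On the second probe the CCl4 rats were less alike, at 3.21, 3.39 and 3.56 (SD 0.17). The difference was -0.36 on the brighter probe and -0.25 on the second. Without corn oil rat 3 the brighter probe gave -0.23.

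Itih3 and Itih4 encode heavy chains of the inter-alpha-trypsin inhibitor family, of which some members attach to hyaluronan in the extracellular matrix. For Itih3 the CCl4 rats had 8.65, 8.48 and 8.74 and the corn oil rats 9.11, 8.83 and 9.11. The groups did not overlap, with a gap of 0.09, and the difference was -0.39. Under quantile normalization it was -0.18. Itih4 had 9.71, 9.43 and 9.56 in CCl4 rats, against 9.86, 9.59 and 9.88 in corn oil rats. Here CCl4 rat 1 lay above corn oil rat 2, and the difference was -0.21 on the brighter probe and -0.52 on the other. For the brighter probe it was -0.070 within the first slide, -0.14 without CCl4 rat 2 and -0.021 under quantile normalization.

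Among the 4 genes with several probes, 3 (A2m, Crp and Itih4) had probes that gave the same sign and 1 (Hp) did not. Over all 15 probes 4 had a positive difference and 11 a negative one.

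The order of animals within a group was shared by many of these genes. Corn oil rat 2 was the lowest of its group for 8 of the 10 genes and the highest for the other 2, A2m and Lcn2. It was also lowest for 8 of 14 hepatocyte markers, and for 34.3% of all genes tested. CCl4 rat 2 was the lowest of its group for 7 of the 10 genes and for 10 of 14 hepatocyte markers, against 38.0% of all genes tested. The genes share the same arrays and scaling, so these counts are not independent of each other.

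**Figure D3:**
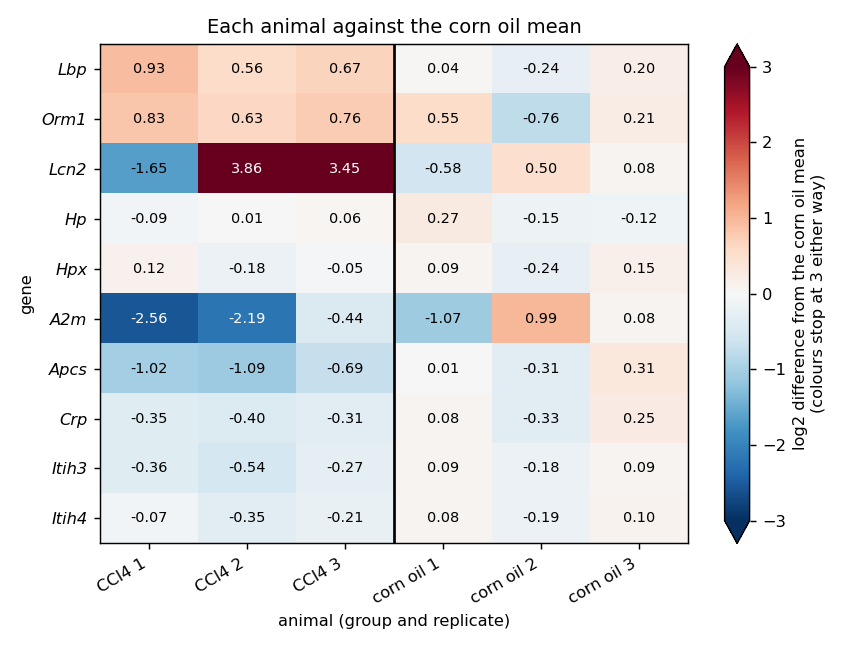
Log2 difference of each rat from the corn oil mean of the same gene (numbers and colours, colours stopping at 3 either way), with the 3 CCl4 rats left of the line and the 3 corn oil rats right of it. The Lcn2 row runs from -1.65 in CCl4 rat 1 to 3.86 in CCl4 rat 2, and the A2m row spans -1.07 to 0.99 among corn oil rats.

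Genes with a pattern over the 6 arrays most like that of A2m or Lcn2 were taken from 2009 genes well above background on every array with a range of at least 1. For A2m these were Hsd17b13 (Pearson r = 0.985), a hepatocyte lipid droplet enzyme gene, Hes2 (0.979) and Hoxd4 (0.958). Hes2 and Hoxd4 were dim, with levels between -4.50 and -3.25. For Lcn2 they were Clec4m (0.975), Rabgap1 (0.956) and Car6 (0.951). Clec4m was the dimmest of these, with levels between -3.51 and -1.79. Each was higher in CCl4 rats 2 and 3, the arrays of the second slide, than on every other array. The r values describe 6 arrays that share slides and groups, and no p is given.

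The response pathway was described through 10 lists of pathway and plasma protein genes that held 182 distinct genes besides the 10. Of these genes 155 were measured and 2 passed limma's test over all genes (1.29%, beside 0.637% of all genes), Cd44 higher and Hamp lower in CCl4, with 42 (27.1%) at an unadjusted p under 0.05, beside 19.7% of all genes. The call of both genes was lost with slide as a fixed block, within the first slide and without CCl4 rat 1 or 2 or corn oil rat 1 or 3, as given with each gene.

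Cytokines and their receptors gave no call. Of 12 ligand genes 10 were measured, with 6 positive and 4 negative differences, a median of 0.06 and 2 at an unadjusted p under 0.05. Il6 had a probe that was not well above background on any array, so no level of it can be given. Tnf, the gene of tumour necrosis factor, was at -2.00, -1.83 and -1.31 in CCl4 rats and -2.34, -2.04 and -2.37 in corn oil rats, a difference of 0.54 ± 0.21 (SE; adjusted p = 0.233). Il1b had a difference of -0.09 ± 0.15 (adjusted p = 0.764) and Il1a of -0.42 ± 0.15 (adjusted p = 0.214). Il1rn, which encodes the interleukin-1 receptor antagonist, had 0.42 ± 0.30 (adjusted p = 0.459). The other Il1rn probe gave -0.11.

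Of 14 measured receptor genes 5 were positive and 9 negative, with a median of -0.25, 0 calls by limma and 4 at an unadjusted p under 0.05. Il6st, which encodes the shared signalling chain gp130, was at 5.37, 5.56 and 5.63 in CCl4 rats, against 5.87, 6.09 and 6.0 in corn oil rats. These did not overlap, and the difference of -0.47 ± 0.12 did not pass (adjusted p = 0.114). One of its other probes gave 0.21. The interleukin-6 receptor gene Il6r was at -0.40, the interleukin-11 receptor gene Il11ra1 at -0.51, the interleukin-1 decoy receptor gene Il1r2 at 0.53, Il22ra1 at 0.33 and the oncostatin M receptor gene Osmr at 0.75, with adjusted p of 0.194 to 0.511. Osmr was well above background on 3 CCl4 and 2 corn oil arrays, and its other probe gave -0.02. No probe was matched to Il1r1.

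Kinase and transcription factor genes were spread around 0, with 9 of 19 positive, a median of -0.02, 0 calls by limma and 6 at an unadjusted p under 0.05. Stat3 was at 3.04, 2.76 and 3.15 in CCl4 rats and 3.10, 2.63 and 3.27 in corn oil rats, a difference of -0.02 ± 0.20 (adjusted p = 0.973). The factor genes Cebpa (-0.47), Nr3c1 (-0.35), which encodes the glucocorticoid receptor, and Hnf4a (-0.34) lay lower in every CCl4 rat without passing (adjusted p of 0.192 to 0.315). Cebpb had a difference of -0.34 and Cebpd of 0.45 (adjusted p = 0.473 each), and Irak1, a kinase gene of interleukin-1 signalling, of 0.54 (adjusted p = 0.10).

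Feedback and direct target genes had 9 positive and 8 negative differences with a median of 0.12, 0 calls by limma and 3 at an unadjusted p under 0.05. Socs3, the STAT3-induced inhibitor gene, was at -1.80, -1.73 and -1.77 in CCl4 rats, against -1.41, -0.72 and -1.66 in corn oil rats. It lay lower in every CCl4 rat, by 0.50 on average, and did not pass (adjusted p = 0.305). The STAT5 target genes Cish (-1.29, adjusted p = 0.255) and Socs2 (-1.06, adjusted p = 0.339) had the lowest values of the list, and the chemokine gene Cxcl1 (1.27, adjusted p = 0.215) and Bcl3 (0.81, adjusted p = 0.311) the highest. Nfkbia, the gene of an NF-kB inhibitor, was at -0.13 ± 0.46 (adjusted p = 0.899).

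Of 32 other positive acute phase genes 28 had a negative and 4 a positive difference, with a median of -0.30, and 10 were at an unadjusted p under 0.05. Under quantile normalization 26 were negative and the median was -0.15. Hamp, which encodes the iron hormone hepcidin, was the 1 gene that passed. Its level was 5.67, 5.82 and 5.43 in CCl4 rats, against 7.86, 7.34 and 8.06 in corn oil rats. The log2 difference was -2.12 ± 0.21 (adjusted p = 0.0252), and so Hamp fell in CCl4 livers. Hamp did not pass with slide as a fixed block (-2.08, adjusted p = 0.195), within the first slide (adjusted p = 0.196), without CCl4 rat 1 (-2.13, adjusted p = 0.106) or 2 (-2.21, adjusted p = 0.119), or without corn oil rat 1 (-2.06, adjusted p = 0.0819) or 3 (-1.96, adjusted p = 0.0826).

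The 3 fibrinogen chain genes lay lower in every CCl4 rat without passing. CCl4 lay below corn oil without overlap for 12 of the 32 genes of this list, beside 15.9% of all genes tested. Fga was at 8.67, 8.24 and 8.78 in CCl4 rats, against 9.33, 9.07 and 9.39 in corn oil rats, a difference of -0.70 ± 0.18 (adjusted p = 0.112). Fgg had a difference of -0.58 (adjusted p = 0.166) and Fgb of -0.28 (adjusted p = 0.303). For Fgb the highest CCl4 rat was at 9.62, close to the lowest corn oil rat at 9.65. The complement gene C3 was at -0.17, the serpin gene Serpina3n at -0.34, its relative Serpina3m at 0.21 and the copper carrier gene Cp at 0.27, and none of the 4 passed (adjusted p of 0.281 to 0.882). The probes of Cp disagreed in sign, with differences from -0.30 to 0.41. Serpina3 genes are near relatives whose probes may not be specific.

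All 22 measured negative acute phase genes had a negative difference, with a median of -0.39, 0 calls by limma and 8 at an unadjusted p under 0.05. Under quantile normalization 18 of 22 were negative. Igfals, which encodes a carrier subunit of insulin-like growth factors, was at 3.37, 2.97 and 3.38 in CCl4 rats and 4.15, 3.88 and 4.12 in corn oil rats, a difference of -0.81 ± 0.15 (adjusted p = 0.0725). It passed under normexp background correction (-0.84, adjusted p = 0.0478). Apoa4 had -0.71 and Mug1, a macroglobulin relative of A2m, -0.46 (adjusted p = 0.284 and 0.132). Albumin (Alb, -0.21), transthyretin (Ttr, -0.24), transferrin (Tf, -0.13) and retinol-binding protein (Rbp4, -0.05) had small differences, with adjusted p of 0.244 to 0.821. The other Tf probe gave 0.04. Hepatocyte markers, 7 of 14 of which are also in these pathway lists, had 13 negative differences, a median of -0.29, 0 calls by limma and 4 at an unadjusted p under 0.05. Apoa1 (-0.53) and Asgr2 (-0.51) had the lowest values among them, and Tat (0.19) was the 1 positive.

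**Figure D4:**
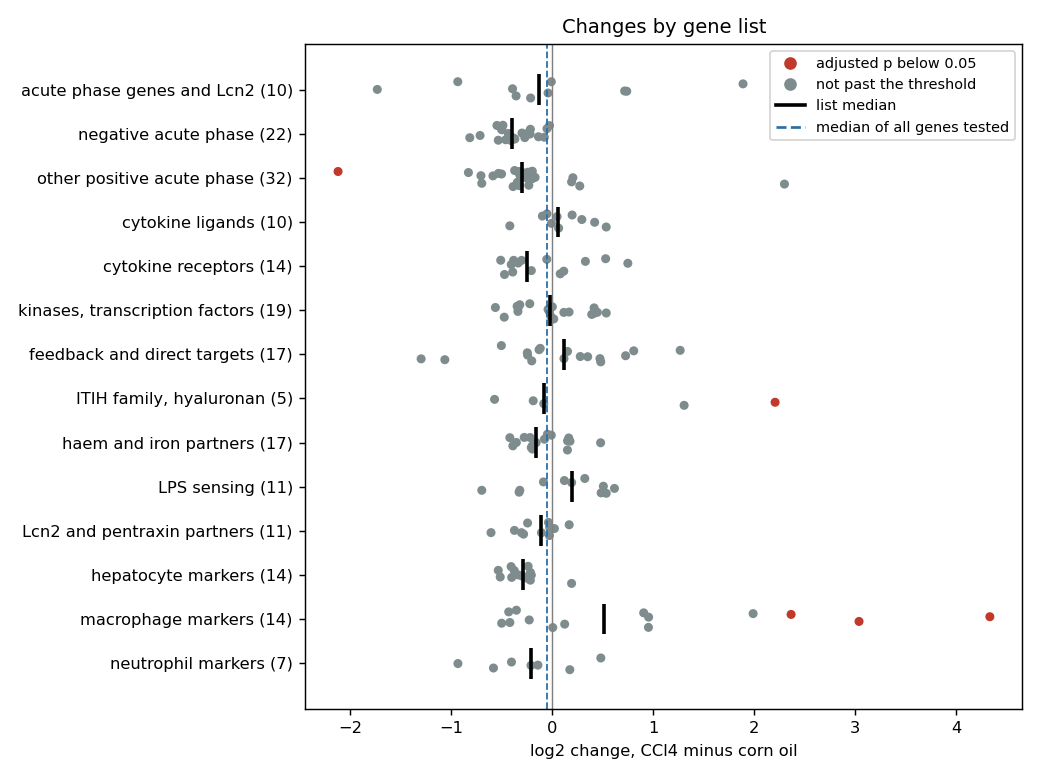
Log2 difference, CCl4 minus corn oil (x axis), of each measured gene, 1 dot per gene, by list (rows, with the number measured); red dots passed limma's test at an adjusted p below 0.05, black bars are list medians and the dashed line is the median of all genes tested, -0.05. Both acute phase lists lie mostly left of 0, with medians of -0.39 and -0.30, and the 10 genes spread from -1.73 to 1.89.

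Partners of the 10 genes were described in 4 lists. Of 5 measured genes of the inter-alpha-trypsin inhibitor family and hyaluronan partners, Cd44, a hyaluronan receptor gene, passed. Its level was 0.04, 0.28 and -0.38 in CCl4 rats, against -2.38, -1.84 and -2.45 in corn oil rats. By the probe with the most signal it rose 4.61-fold (2.21 ± 0.23, adjusted p = 0.0252). Its 3 probes disagreed, with a lowest difference of 0.05, and their mean gave 1.47 (adjusted p = 0.0510). Cd44 did not pass with slide as a fixed block (2.27, adjusted p = 0.195), within the first slide (adjusted p = 0.161), without CCl4 rat 1 (2.18, adjusted p = 0.106) or 2 (2.06, adjusted p = 0.136), or without corn oil rat 1 (2.13, adjusted p = 0.0911) or 3 (2.09, adjusted p = 0.0826). Itih1, another heavy chain gene, was at -0.57 ± 0.14 (adjusted p = 0.110), and Ambp, which encodes the light chain bikunin, at -0.19 ± 0.10 (adjusted p = 0.359), both lower in every CCl4 rat. The list's median was -0.08, with 3 genes at an unadjusted p under 0.05, and no probe was matched to Itih2.

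Of 17 haem and iron genes 5 were positive and 12 negative, with a median of -0.16, 0 calls by limma and 1 at an unadjusted p under 0.05. Cd163, which encodes the macrophage receptor for haptoglobin-haemoglobin complexes, was at -0.42 (adjusted p = 0.353). Lrp1, a receptor gene for hemopexin-haem and for alpha-2-macroglobulin, was at -0.27 (adjusted p = 0.504). The haem oxygenase genes Hmox1 and Hmox2 were at -0.20 and -0.39, the biliverdin reductase gene Blvra at 0.18 and the transferrin receptor gene Tfrc at 0.48 (adjusted p of 0.113 to 0.539).

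Of 11 genes of lipopolysaccharide sensing 7 were positive and 4 negative, with a median of 0.19, 0 calls by limma and 4 at an unadjusted p under 0.05. Cd14, the receptor gene to whose product Lbp hands lipopolysaccharide, was at 3.17, 2.64 and 2.42 in CCl4 rats and 4.12, 2.67 and 3.53 in corn oil rats, a difference of -0.69 ± 0.39 (adjusted p = 0.364). Ly96, which encodes the TLR4 partner MD-2, was higher in every CCl4 rat by 0.51 ± 0.12 without passing (adjusted p = 0.0977). Tlr4 had -0.08, Tlr6 0.62 and Irak4 -0.33 (adjusted p of 0.111 to 0.869).

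Of 11 partner genes of Lcn2 and of pentraxins 2 were positive and 9 negative, with a median of -0.10, 0 calls by limma and 2 at an unadjusted p under 0.05. Slc22a17, a receptor gene for lipocalin-2, was at 3.08, 3.04 and 3.31 in CCl4 rats and 3.45, 3.26 and 3.62 in corn oil rats, a difference of -0.30 ± 0.14 (adjusted p = 0.282). C1qc and C1qa, complement genes whose products bind pentraxins, were at -0.60 and -0.37 (adjusted p = 0.110 and 0.251), Bdh2 was at 0.17 and the Fc receptor gene Fcgr2b at 0.02 (adjusted p = 0.806 and 0.957). The pentraxin gene Ptx3 was not well above background on any array, and Mmp9, whose product pairs with lipocalin-2, was so on 2.

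Among cell type markers, 3 of 14 macrophage genes rose and 0 fell, with a median of 0.52 and 7 at an unadjusted p under 0.05. Trem2 rose 20.1-fold, Gpnmb 8.20-fold and Lgals3 5.15-fold (adjusted p = 0.0106, 0.0462 and 0.00729), whereas Vsig4 (-0.50) and Adgre1 (-0.43) did not pass (adjusted p = 0.262 and 0.370). A fixed slide block ended all 3 calls (adjusted p = 0.136, 0.239 and 0.115). The log2 differences of Trem2, Gpnmb and Lgals3 were then 4.06, 2.43 and 2.39, against 4.33, 3.04 and 2.36 as reported. The first slide alone gave the same differences as the fixed block, and both rest on CCl4 rat 1. The calls were also lost without CCl4 rat 1 (0.0559, 0.106 and 0.0543) and without CCl4 rat 2 (0.0903, 0.185 and 0.0723). Gpnmb and Lgals3 did not pass without corn oil rat 3 (0.116 and 0.0526), nor Gpnmb without corn oil rat 1 (0.135), without CCl4 rat 3 (0.0602) or without the filter on dim probes (0.0724). Limma called 0 genes of the other marker lists. The median was 0.49 for 10 stellate and fibroblast genes. Dcn at 1.03 and Col1a2 at 0.99 were highest in that list, and Acta2 at -0.24 and Lrat at -0.02 lowest. For 6 bile duct genes it was 0.28, with Spp1 at 1.46, Epcam at 0.52 and Krt19 at -0.17. Levels of Spp1 were -1.02, -2.19 and 1.57 in CCl4 rats 1, 2 and 3, against -1.99, -2.30 and -1.75 in corn oil rats. The Spp1 groups overlapped, with CCl4 rat 3 far above the other animals (adjusted p = 0.403). Col1a2 passed under normexp (0.95, adjusted p = 0.0478) and without CCl4 rat 3 (1.15, adjusted p = 0.0380), and just passed once variances were fitted with an intensity trend (adjusted p = 0.04996). The median was -0.21 for 7 neutrophil genes, with Camp at -0.93 and Fcnb at 0.48, -0.01 for 3 endothelial genes and 0.08 for 4 erythroid genes. At an unadjusted p under 0.05 these lists held 5, 1, 0, 1 and 0 genes in the same order.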

How the data were processed

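Total RNA from the livers of 6 rats (0.2 µg each) received the dye Cy3 for 1-colour Agilent arrays, per the labels' protocols. The treatment label gave the group and the title the replicate number. In the deposited scanner files the unit is spot intensity, background-subtracted by Agilent Feature Extraction and not scaled between arrays. Per the file headers its version was 10.7.1.1, and the submitters' processing notes give 10.7. The authors' deposited value table is a linear ratio whose scaling is not given in the sources used here. Set against the scanner values it equals the processed signal divided by 583.3 to 676.5 units per array (coefficient of variation at most 0.0222%), close to the 75th percentile of 582.6 to 675.6. Its direction is that of signal, it is not centred by gene, and its column medians were 0.103 to 0.110.

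Control spots (1439) and 26 probes with an outlier flag were left out. Through the unversioned RefSeq accession, 28206 of 61537 probes were given 1 of 15645 symbols in a GRCr8 gene table. The array design names an older build, so no probe coordinates are given. The log2 of the processed signal was taken, less that of the array's own 75th percentile. Genes entered the test with at least 1 probe well above background on 3 or more of 6 arrays, represented by their brightest such probe. CCl4 was compared with corn oil in limma 3.58.1 and R 4.3.3 (lmFit and eBayes, two-sided, Benjamini-Hochberg over 11939 genes, threshold 0.05). The procedure was also run on simulated data with independent noise and no slide effect. That run cannot show how the procedure behaves with the slides of these data. The precision is limited by 3 arrays per group, and at most 4 probes per array were saturated.

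The 10 genes, the 10 pathway lists and the 7 marker lists were chosen with earlier results of these data known. Named list genes were 41 fixed genes and, per list and direction, up to 3 that passed or otherwise up to 2 with the largest difference among those well above background on all arrays. Some genes that this rule chose are not reported here. Alternatives were quantile and median scaling, normexp (offset 50) on median spot signals because mean signals are not among the columns used here, the authors' values, dropping the filter or applying it to all 6 arrays, probe means, a variance trend, array weights, slide as a fixed or random block (statmod 1.5.0), the first slide alone, a replicate block, and leaving out each array. Tables and plots were made with matplotlib 3.10.9, pandas 2.3.3 and numpy 2.4.6 in Python 3.11.15.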

Additional observations from a re-analysis of the deposited data

How the results depend on the processing

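With 3 arrays per group and slide partly bound to treatment, few settings agree on the number of genes that passed. It was 76 as reported and under quantile normalization and the authors' values, 105 under median scaling and with slide as a random block, 57 without a filter and 100 with probe means. It was 214 under normexp, 139 with the filter on all 6 arrays, 156 with a variance trend, 128 with array weights, 4 with slide as a fixed block, 0 within the first slide alone, 10 with the replicate block, and 2 to 241 when 1 array was left out. Of the pathway list genes 2 passed as reported, 1 with probe means, 0 with slide as a fixed block, 0 within the first slide, 1 with the replicate block and 0 to 3 with 1 array left out. The cause was not tested. The first slide alone holds 4 arrays and each array left out leaves 5. Deviations from the group means correlated at -0.05, 0.16 and 0.02 between same-numbered rats. With 3 rats per group, these values cannot show whether replicate numbers pair the animals. The replicate block ended the limma calls of Hamp and Gpnmb (adjusted p of 0.0886 and 0.0830).

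Among the 10 acute phase genes, the sign of Lcn2 turned with slide as a fixed block and within the first slide (-1.65 each), Hp turned in 5 settings and Hpx in 7, and the other 7 kept their sign. Member probes with a positive difference numbered 3 to 6, against 4 as reported.

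Of 85 genes chosen by the naming rule, 5 lost their call in some setting, 2 gained one and 19 turned in sign, all of them uncalled. With slide as a fixed block and within the first slide, which gave the same differences, Acta2 was at 0.021, Alas2 at 0.19, Bdh2 at -0.033, Cebpb at 0.12, Fcgr2b at -0.21, Hbb at 0.043, Lrat at 0.17, Lyve1 at -0.17, Nfkbia at 0.60, S100a8 at 0.26, S100a9 at 0.33, Serpina3m at -0.30 and Stat3 at 0.037. Quantile normalization turned Lrat (0.024), Pecam1 (0.020), Rbp4 (0.11) and Stat3 (0.026), and normexp turned Fcgr2b (-0.054), Lrat (0.011), Nfkbia (0.016) and Stat3 (0.012). Median scaling turned Fcgr2b (-0.0058), probe means Lrat (0.098) and Pecam1 (0.17), array weights Lrat (0.0075) and Pecam1 (0.00089), and the random slide block Pecam1 (0.00073). With 1 array left out, Ahsp ranged over -0.076 to 0.82, Alas2 -0.68 to 0.46, Bdh2 -0.12 to 0.54, Csf3r -0.029 to 0.43, Fcgr2b -0.13 to 0.17, Hbb -0.48 to 0.30, Lrat -0.11 to 0.17, Lyve1 -0.089 to 0.24, Nfkbia -0.57 to 0.11, Pecam1 -0.046 to 0.070, Serpina3m -0.48 to 0.71, Stat3 -0.20 to 0.12, Tat -0.17 to 0.58 and Tlr4 -0.29 to 0.15.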
